A study of Homo sapiens with 28 samples.

Results

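U-2 OS is a human osteosarcoma cell line, and the cells profiled here carried wild-type p53 in every RNA library. RNA was sequenced from cells kept for 8 h in medium that other wild-type U-2 OS cells had conditioned with DMSO, the solvent control (WT DMSO medium), and from cells collected at the start of the assay (T0, 0 h). Each group had 2 libraries, lettered A and B. The sample titles call the WT DMSO donors DMSO-treated, while their treatment label calls the donors untreated. The T0 cells were untreated. The described genes were all those with a mean raw count of 20 or more over the 10 RNA libraries of the series, 13638 of 25807 listed symbols, which left out 12169. The other 3 groups, of 2 libraries each, were the same wild-type cells after 8 h in DMSO medium from p53 knockout (KO) donors, and after 8 h in medium from WT or p53 KO donors given 31.6 µM etoposide, a poison of topoisomerase II. Just inside the minimum were ARMCX5-GPRASP2, TBX6 and MKRN9P with a mean count of 20.0, and just outside were KRT222, LOC100505666 and PCDH11X with 19.9.

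The comparison asks how the transcripts of unexposed cells differ from those of cells in the control conditioned medium, the baseline against which the etoposide media are read. T0 differs from the 8 h libraries in the medium, in time and in handling at once, and these cannot be told apart. In bulk RNA, fewer cells with a transcript and less of it per cell cannot be told apart either. Nothing in the labels says that libraries A and B came from separate cultures, so p-values measure only the spread between these samples, which may be technical.

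Conditioned medium carries what the donor cells secreted and lacks what they used up. Serum, growth factors and cell adhesion drive the kinases ERK and p38 and the transcription factors SRF, AP-1 and NF-kB, and these switch on early response genes with short-lived transcripts, several of which encode inhibitors of the same signals. Amino acid shortage and other stresses act through the transcription factor ATF4, misfolded protein in the cytosol acts through HSF1, and the genes of mitosis are transcribed in G2 and M phase.

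Total counts were 19854703 and 19719557 in the WT DMSO libraries A and B, against 18972758 and 18523119 at T0, and ran from 16825669 to 20290764 over all 10 libraries. The described genes held 99.8 to 99.9% of the counts. Levels are given in CPM, a gene's counts scaled to the same total in every library, with TMM factors. Of the mesenchymal markers, VIM, SPARC, COL1A1 and FN1 were abundant in all 4 libraries and TWIST1 was at 0. Of 6 haematopoietic markers, 3 were at 0, CD3E and HBB among them, and all 6 summed to 1.43 and 1.11 CPM in WT DMSO medium, against 1.33 and 2.54 CPM at T0, mostly PTPRC. Of 4 endothelial markers, PECAM1 was at 0, and all 4 summed to 1.58 and 0.962 CPM in WT DMSO medium, against 2.97 and 2.54 CPM at T0. Most of that was VWF, at 1.33 and 0.861 CPM in WT DMSO medium, against 2.39 and 2.38 CPM at T0, which was called lower (log2 fold change −1.12 ± 0.29, adjusted p = 0.0055), though not with DESeq2 (0.0519) or without WT DMSO B (0.083). The part of this in other results was not tested. The 6 epithelial markers summed to 16.9 and 15.6 CPM in WT DMSO medium, against 15.0 and 17.6 CPM at T0. The 5 melanocyte or neural markers summed to 35.4 and 36.1 CPM in WT DMSO medium, against 35.3 and 35.4 CPM at T0. Most of that was RBFOX3, at 26.9 and 26.2 CPM in WT DMSO medium, against 24.7 and 26.0 CPM at T0. The p53 KO DMSO libraries, which enter the shared estimate of the spread, differed from each other more than any other pair, with a chi-square per degree of freedom of 13.5 against 1.96 to 5.40 in the other pairs.

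More genes fell than rose by a large factor. CXCL8, CCL2, CSF2 and other secreted inflammatory factors were lower in WT DMSO medium than at T0, together with growth factor and early response genes. The genes that rose did so by smaller factors, and mitotic, heat shock and some ATF4 target genes were among them. Of 13638 genes, 5292 passed edgeR's quasi-likelihood test at a Benjamini-Hochberg adjusted p under 0.05 (38.8%). In 10151 genes (74.4%) the libraries of WT DMSO medium did not overlap those of T0. The called genes divided almost evenly, with 2655 higher (19.5%) and 2637 lower (19.3%). At a change of at least 2-fold the split was uneven, with 172 genes higher (1.26%) and 517 lower (3.79%). At least 4-fold changes numbered 9 higher and 92 lower, and at least 8-fold changes 0 higher and 23 lower. The median log2 fold change over all genes was 0.01. Under 13 other settings the number called stayed within 1.5 times of 5292, except without T0 library A, when 3514 genes were called, 1603 higher and 1911 lower. Of the 689 genes called with at least a 2-fold change, 584 were called with the same sign in all 13. The gene groups below come from 33 lists with 714 tested genes, and 1 of them, the mitochondrially encoded genes, had 0 of 9 genes in the table.

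**Figure D1:**
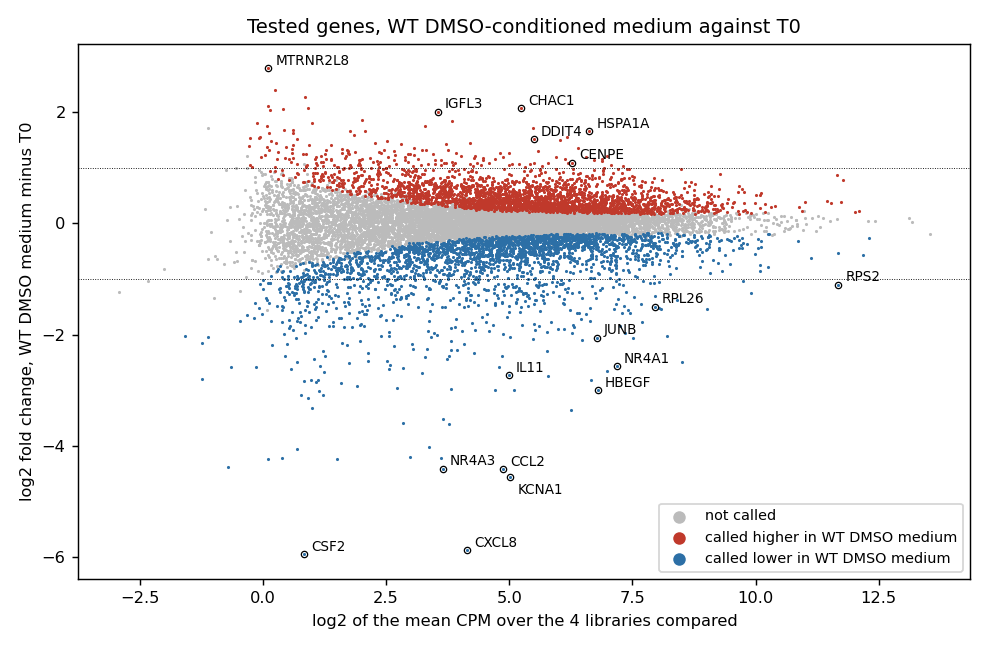
Each point is 1 of 13638 genes, with the log2 of its mean CPM over the 4 libraries on the x axis and its log2 fold change, WT DMSO medium minus T0, on the y axis. Red and blue points passed the test, dotted lines mark a 2-fold change, and circles mark named genes. Points reach −5.95 below zero and 2.78 above it.

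Among called genes with at least 1 CPM in the higher group and no overlap between groups, the 12 lowest log2 fold changes were those of CSF2, CXCL8, KCNA1, CCL2, NR4A3, CCL4, FOXA1, CCL20, CCL3, RGS4, EPPK1 and EREG. Of these, 6 encode secreted cytokines or chemokines. CXCL8, the neutrophil chemokine interleukin-8, had 0.46 and 0.709 CPM in WT DMSO medium, against 35 and 34.3 CPM at T0, a log2 fold change of −5.87 ± 0.17 (SE, adjusted p = 6.03e-13). CCL2, a chemokine for monocytes, had 2.86 and 2.38 CPM in WT DMSO medium, against 57.6 and 54.6 CPM at T0 (−4.42 ± 0.16, adjusted p = 3.75e-12). CSF2, the growth factor GM-CSF, had 2 counts in the WT DMSO libraries together, against 132 counts in the T0 libraries, a 69.5-fold lower level with a 95% counting interval of 18.9 to 579.9. For each of these 3 genes, no overlap between the groups was a condition of selection. CCL4 had 2 counts in WT DMSO medium, against 44 at T0, 23.2-fold lower with an interval of 6.04 to 197.

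The remaining genes of that group were of other kinds. KCNA1, a voltage-gated potassium channel, had 2.71 and 2.53 CPM in WT DMSO medium, against 61.7 and 62.5 CPM at T0 (−4.56 ± 0.14, adjusted p = 6.03e-13). RGS4, a regulator of G protein signalling, had 1.07 and 1.42 CPM in WT DMSO medium, against 23.8 and 23 CPM at T0 (−4.22 ± 0.27). EPPK1, the cytoskeletal linker epiplakin, had 1.02 and 0.607 CPM in WT DMSO medium, against 14.6 and 15.3 CPM at T0 (−4.19 ± 0.23). These genes were selected for no overlap with T0 and for the lowest log2 fold changes. FOXA1, a pioneer transcription factor, had 0.102 and 0.101 CPM in WT DMSO medium, against 2.28 and 1.78 CPM at T0 (−4.24 ± 0.50). Outside the naming rule, and chosen after their values were seen, the next lowest included XIRP1 (−3.59 ± 0.21), TRAF1 (−3.51 ± 0.18), an adaptor of TNF receptors, PCDH7 (−3.36 ± 0.19) and RRAD (−3.09 ± 0.36).

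NF-kB is held in the cytosol by IkB proteins until a signal removes them, and its targets include both inflammatory factors and those inhibitors. Of 20 tested genes of the NF-kB and inflammatory list, 19 fell and 0 rose (background 19.3% lower), 17 of them by at least 2-fold, with a median log2 fold change of −2.11. The exception was IL1A, an inflammatory cytokine near the detection limit, with 0.153 and 0.202 CPM in WT DMSO medium, against 0.265 and 0.378 CPM at T0 (−0.83 ± 0.66, adjusted p = 0.344). Promoters from RefSeq (GRCh38.p14, 250 bases before to 50 after the start) are printed for 2 genes of the list, since CXCL8 fell most by a well-measured margin and NFKBIA is the inhibitor fed back by NF-kB. Capitals mark matches to GGANTTTCC, an NF-kB motif, and, in CXCL8 only, to TGANTCA, an AP-1 motif.
CXCL8 (chr4:73740319-73740618, plus strand): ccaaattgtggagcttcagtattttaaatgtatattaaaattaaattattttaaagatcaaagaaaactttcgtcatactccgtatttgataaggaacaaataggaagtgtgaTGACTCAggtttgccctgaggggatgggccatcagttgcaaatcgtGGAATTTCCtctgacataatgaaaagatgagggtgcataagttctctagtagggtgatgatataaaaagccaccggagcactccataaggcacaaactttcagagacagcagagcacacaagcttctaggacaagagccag
NFKBIA (chr14:35404700-35404999, minus strand): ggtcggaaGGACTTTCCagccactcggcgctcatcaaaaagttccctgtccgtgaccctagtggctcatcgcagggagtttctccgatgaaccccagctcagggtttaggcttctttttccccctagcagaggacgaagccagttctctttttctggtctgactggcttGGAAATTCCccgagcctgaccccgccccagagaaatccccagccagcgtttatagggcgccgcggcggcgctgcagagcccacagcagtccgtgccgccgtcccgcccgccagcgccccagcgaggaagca
The CXCL8 matches begin 91 (NF-kB) and 137 (AP-1) bases before the start, and those of NFKBIA begin 242 and 81 bases before it. Searched on both strands, GGANTTTCC was in 6 of the 16 list promoters in the table (37.5%), in 1.54% of the 10860 promoters of tested genes and in 1.64% of all 27305 promoters. TGANTCA was in 3 of the 16, in 4.77% of tested genes and in 7.76% of all promoters. Of 375 promoters of genes called at least 2-fold lower, 3.73% held GGANTTTCC and 10.4% held TGANTCA.

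Both secreted factors and intracellular regulators of that list were lower. IL11, an interleukin of the IL-6 family, had 8.17 and 8.5 CPM in WT DMSO medium, against 59.5 and 51.1 CPM at T0 (−2.73 ± 0.13, adjusted p = 8.71e-11). IL6 had 0.307 and 0.405 CPM in WT DMSO medium, against 3.61 and 3.62 CPM at T0 (−3.32 ± 0.33, adjusted p = 8.36e-07). Among regulators, TNFAIP3, the deubiquitinase A20 that damps NF-kB, had 6.85 and 4.76 CPM in WT DMSO medium, against 46.9 and 45.6 CPM at T0 (−2.99 ± 0.16, adjusted p = 2.75e-10). NFKBIA itself was lower by a smaller margin, with 42.9 and 43.5 CPM in WT DMSO medium, against 99.3 and 104 CPM at T0 (−1.23 ± 0.08, adjusted p = 3.45e-09). RELB, an NF-kB subunit, fell (−2.29 ± 0.13), and so did BIRC3, a ubiquitin ligase of TNF signalling (−3.61 ± 0.17). PTGS2, the prostaglandin-making enzyme COX-2, had 0.971 and 1.16 CPM in WT DMSO medium, against 2.55 and 2.49 CPM at T0 (−1.23 ± 0.26), and CSF1, the macrophage growth factor, had 14.7 and 13.2 CPM in WT DMSO medium, against 38 and 39.2 CPM at T0 (−1.47 ± 0.10). The member that fell least was SOD2, a mitochondrial superoxide dismutase (−0.30 ± 0.09, adjusted p = 0.0151), whose call ended when any of the 4 libraries was left out (adjusted p from 0.0587 to 0.0932). Of 13 interferon-stimulated genes, 1 rose, 3 fell and 9 did not pass the test (median −0.25). Over all tested genes 19.5% were higher and 19.3% lower, so the lower count is near that background. IFIT1, an RNA-binding antiviral protein, had 8.33 and 9.77 CPM in WT DMSO medium, against 3.77 and 3.95 CPM at T0 (1.23 ± 0.23, adjusted p = 0.000438), whereas IFI6 (−1.58 ± 0.25) and OASL (−1.87 ± 0.35) were lower. The WT DMSO libraries of IFI6 lay apart, with 7.36 and 3.24 CPM in WT DMSO medium, against 17.2 and 14.4 CPM at T0, and its log2 fold change was −2.29 without WT DMSO A.

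Ligands of the EGF receptor and feedback inhibitors of ERK are both ERK targets. In the list of 15 such genes, 13 fell (background 19.3%) and 0 rose, with a median log2 fold change of −1.60. HBEGF, a ligand of the EGF receptor, had 24.3 and 25.2 CPM in WT DMSO medium, against 206 and 190.4 CPM at T0 (−3.00 ± 0.09, adjusted p = 6.03e-13). The ligands EREG (−4.05 ± 0.42), AREG (−2.38 ± 0.35) and TGFA (−1.76 ± 0.12) fell too, EREG with 0.204 and 0.152 CPM in WT DMSO medium, against 3.02 and 3.08 CPM at T0. Inhibitors were lower too. ERRFI1, which binds and blocks the EGF receptor, had 36.8 and 31.6 CPM in WT DMSO medium, against 131 and 119 CPM at T0 (−1.87 ± 0.10, adjusted p = 3.13e-10). SPRY2, which restrains signalling from receptor tyrosine kinases, had 3.07 and 3.09 CPM in WT DMSO medium, against 16.6 and 16.1 CPM at T0 (−2.41 ± 0.16), and DUSP5, a nuclear phosphatase of ERK, stood at −2.12 ± 0.18. LIF, a cytokine of the IL-6 family, had 145 and 135 CPM in WT DMSO medium, against 407 and 403 CPM at T0 (−1.53 ± 0.07, adjusted p = 5.81e-11). The phosphatase DUSP6 (−0.14 ± 0.30, adjusted p = 0.747) and the transcription factor ETV4 (−0.25 ± 0.14, adjusted p = 0.155) did not pass the test. ETV4 passed it without the p53 KO DMSO libraries (0.0014), with no filter (0.0073) and with only the 4 libraries compared (0.00015).

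Early response transcription factors were mostly lower, with 19 of 23 genes lower (background 19.3%), 1 higher and a median log2 fold change of −0.998. The NR4A nuclear receptors were among the lowest. NR4A1 had 42.5 and 41.3 CPM in WT DMSO medium, against 253 and 243 CPM at T0 (−2.57 ± 0.09, adjusted p = 3.75e-12). NR4A3 had 0.92 and 1.32 CPM in WT DMSO medium, against 26.2 and 21.7 CPM at T0 (−4.41 ± 0.20, adjusted p = 6.06e-11), and NR4A2 fell as well (−4.02 ± 0.24). Members of the AP-1 family did not move as one. JUNB had 45.3 and 39.3 CPM in WT DMSO medium, against 184 and 169 CPM at T0 (−2.06 ± 0.08, adjusted p = 2.58e-11), and FOSL1 stood at −1.61 ± 0.15. FOSB had 2.4 and 2.63 CPM in WT DMSO medium, against 2.65 and 2.05 CPM at T0, which overlap (0.10 ± 0.24, adjusted p = 0.78). JUN (−0.24 ± 0.12, adjusted p = 0.11) and ATF3 (−0.04 ± 0.11, adjusted p = 0.78) did not pass either. JUN passed without the p53 KO DMSO libraries (0.0146), with no filter (0.0105) and with only the 4 libraries compared (0.00038).

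The only early response gene that rose was EGR1, a zinc finger factor induced by serum, with 213 and 175 CPM in WT DMSO medium, against 110.2 and 116 CPM at T0 (0.78 ± 0.24, adjusted p = 0.0154). Its libraries did not overlap, but the call ended with DESeq2 (0.136) and without T0 A (0.0993), T0 B (0.0686) or WT DMSO A (0.14). FOS had 17 and 13.4 CPM in WT DMSO medium, against 25.2 and 29.7 CPM at T0 (−0.85 ± 0.23, adjusted p = 0.00752), and its call ended with DESeq2 (0.166) and without T0 B (0.0833) or WT DMSO B (0.11). SRF, the serum response factor, stood at −1.05 ± 0.07 (adjusted p = 7.61e-09). MYC, a growth regulator, had 239 and 247 CPM in WT DMSO medium, against 422 and 423 CPM at T0 (−0.80 ± 0.10, adjusted p = 1.21e-05).

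**Figure D2:**
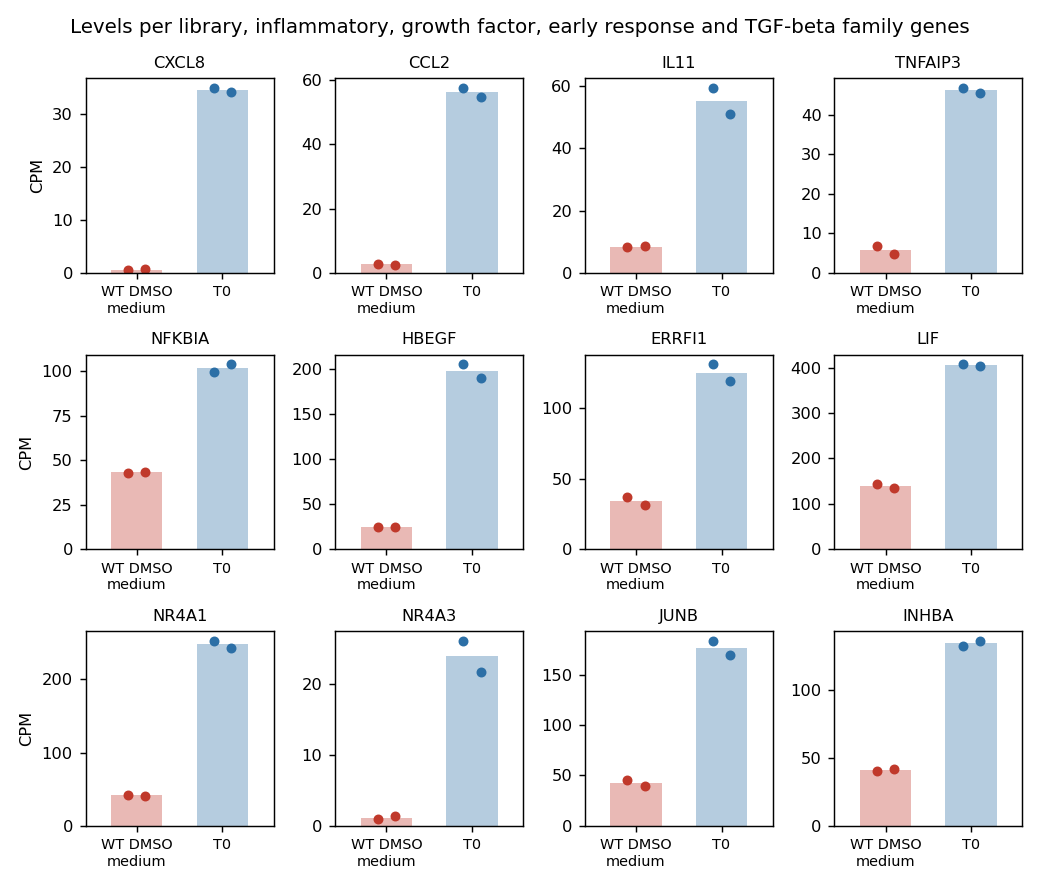
CPM on the y axis for 12 genes of the inflammatory, growth factor, early response and TGF-beta lists. Points are libraries A and B and bars are their means, with WT DMSO medium in red on the left of each panel and T0 in blue on the right. In every panel both WT DMSO libraries lie below both T0 libraries.

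Other signalling targets were lower to a lesser degree. The background over all tested genes was 19.3% lower and 19.5% higher. In the list of TGF-beta, SRF and YAP targets, 16 of 25 genes fell and 1 rose (median −0.59). INHBA, a subunit of the TGF-beta family ligand activin A, had 40 and 41.5 CPM in WT DMSO medium, against 132 and 136 CPM at T0 (−1.72 ± 0.11, adjusted p = 2.09e-09), and CTGF, a matricellular YAP target, stood at −2.02 ± 0.19. The 1 gene that rose was AJUBA, a LIM protein of the Hippo pathway, with 192 and 196 CPM in WT DMSO medium, against 114 and 112 CPM at T0 (0.79 ± 0.07, adjusted p = 2.29e-07). Of 15 BMP pathway genes, 10 fell and 2 rose (median −0.37). The targets ID1 (−0.46 ± 0.08), ID2 (−0.33 ± 0.12), ID3 (−0.37 ± 0.09) and ID4 (−1.38 ± 0.14), inhibitors of helix-loop-helix transcription factors, all fell, ID1 with 229 and 219.6 CPM in WT DMSO medium, against 306 and 309.9 CPM at T0. The ID2 call ended with DESeq2 (0.109), total counts (0.0506) or the replicate block (0.0503), and without T0 B (0.375), WT DMSO A (0.168) or WT DMSO B (0.133). The receptor BMPR2 had 98.1 and 102 CPM in WT DMSO medium, against 181 and 191 CPM at T0 (−0.90 ± 0.07), and the ligand BMP4 was higher at 0.66 ± 0.12. ATOH8 rose as well (0.85 ± 0.22, adjusted p = 0.00487), but not without T0 A (0.0966) or WT DMSO A (0.0519).

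Of 13 Notch and Wnt genes, 9 fell and 1 rose (median −0.47), against a background of 19.3% lower and 19.5% higher. JAG1, a Notch ligand, had 9.66 and 11.7 CPM in WT DMSO medium, against 28.7 and 28.2 CPM at T0 (−1.41 ± 0.12, adjusted p = 1.47e-07). LEF1, a transcription factor of the Wnt pathway, stood at −1.22 ± 0.13 and NKD1, an inhibitor of it, at −1.13 ± 0.21. HES1, a Notch target, rose (0.26 ± 0.09, adjusted p = 0.031), with a call that ended when any of the 4 libraries was left out (adjusted p from 0.093 to 0.161). Among 12 glucocorticoid-responsive genes, 9 fell and 1 rose (median −0.62). CRISPLD2 had 3.27 and 2.43 CPM in WT DMSO medium, against 13.4 and 14 CPM at T0 (−2.26 ± 0.17), and the kinase SGK1 stood at −1.19 ± 0.09. TSC22D3, the leucine zipper protein GILZ, was the 1 that rose, at 0.94 ± 0.15 (adjusted p = 7.96e-05). ERRFI1 and DUSP1 stand both in this list and in the ERK list.

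Of 31 extracellular matrix genes, 17 fell, 1 rose and 13 did not pass the test (median −0.26). The background for this list and the bone list was 19.3% lower and 19.5% higher. The abundant members COL1A1, a collagen I chain (0.09 ± 0.10, adjusted p = 0.492), and FN1, fibronectin (0.04 ± 0.10, adjusted p = 0.773), were among those that did not pass. The 1 member that fell by at least 2-fold was MMP3, a matrix protease (−1.18 ± 0.18, adjusted p = 6.27e-05). MMP14, a membrane-bound collagenase, had 187 and 174 CPM in WT DMSO medium, against 283 and 277 CPM at T0 (−0.64 ± 0.07, adjusted p = 1.29e-06), and the protease inhibitors TIMP1 (−0.62 ± 0.08) and TIMP3 (−0.64 ± 0.07) were lower too. SPARC, a matrix glycoprotein and bone list member, was the gene that rose (0.22 ± 0.08, adjusted p = 0.0402), a call that ended when any of the 4 libraries was left out (adjusted p from 0.109 to 0.174). Of 13 bone lineage genes, 4 rose and 6 fell (median −0.22), with 2 higher when any 1 of the 4 libraries was left out. PTHLH, the parathyroid hormone-like hormone, had 11 and 11 CPM in WT DMSO medium, against 30.2 and 30.6 CPM at T0 (−1.46 ± 0.10), whereas RUNX2, the master factor of osteoblasts, was higher at 0.69 ± 0.13 (adjusted p = 0.000419). TNFRSF11B, the osteoclast inhibitor osteoprotegerin, stood at −1.64 ± 0.25.

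Heat shock genes rose together. Of 18 tested chaperones and partners, 15 rose (background 19.5% higher), 1 fell and 2 did not pass the test, with a median log2 fold change of 0.39. The inducible HSP70 gene HSPA1A had 147 and 153 CPM in WT DMSO medium, against 45.9 and 49.3 CPM at T0 (1.65 ± 0.08, adjusted p = 7.38e-11). Its near-identical copy HSPA1B stood at 1.71 ± 0.09, and the division of reads between these copies is uncertain. CHORDC1, a cochaperone of HSP90, had 115 and 128 CPM in WT DMSO medium, against 47.7 and 47.3 CPM at T0 (1.35 ± 0.07, adjusted p = 6.16e-10). HSPH1, an HSP110 exchange factor, had 237 and 240.0 CPM in WT DMSO medium, against 135 and 133 CPM at T0 (0.83 ± 0.07). The 1 member that fell was the small heat shock protein CRYAB, with 290.4 and 292 CPM in WT DMSO medium, against 430.0 and 446 CPM at T0 (−0.59 ± 0.12, adjusted p = 0.000698). HSPB1 (−0.02 ± 0.08, adjusted p = 0.855) and the factor HSF1 itself (0.06 ± 0.08, adjusted p = 0.57) did not pass. The CHORDC1 promoter (RefSeq, GRCh38.p14) is shown because it holds an extended heat shock element, in capitals, formed by 3 overlapping matches to a run of GAA, TTC and GAA with 2 free bases between units, which begin 60, 55 and 50 bases before the start.
CHORDC1 (chr11:90223000-90223299, minus strand): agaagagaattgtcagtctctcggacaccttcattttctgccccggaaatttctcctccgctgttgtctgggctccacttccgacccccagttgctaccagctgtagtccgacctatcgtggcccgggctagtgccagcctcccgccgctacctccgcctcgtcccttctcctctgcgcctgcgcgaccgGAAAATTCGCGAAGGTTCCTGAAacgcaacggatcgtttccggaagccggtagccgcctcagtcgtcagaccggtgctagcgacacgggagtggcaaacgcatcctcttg
That motif was in 3 of 15 list promoters in the table (20.0%), in 0.35% of tested genes and in 0.487% of all promoters. Of 117 promoters of genes called at least 2-fold higher, 1.71% held it.

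ATF4 targets were called in both directions. Of 32, 11 rose, 8 fell and 13 did not pass the test (median 0.09), and fewer were called without T0 A. Over all tested genes, 19.5% were higher and 19.3% lower. CHAC1, which degrades glutathione, had 60.1 and 61 CPM in WT DMSO medium, against 14.2 and 14.8 CPM at T0 (2.06 ± 0.09, adjusted p = 7.23e-11). DDIT4, an inhibitor of the growth kinase mTORC1, had 68.2 and 65.2 CPM in WT DMSO medium, against 23 and 23.8 CPM at T0 (1.51 ± 0.10, adjusted p = 3.61e-09). SESN2, a leucine sensor that also restrains mTORC1, had 125 and 121 CPM in WT DMSO medium, against 72.3 and 63.9 CPM at T0 (0.85 ± 0.08, adjusted p = 3.04e-07). These 3 rose, but ASNS, asparagine synthetase, fell (−0.35 ± 0.08, adjusted p = 0.00145). PSPH, an enzyme of serine synthesis, was higher at 0.70 ± 0.10. ATF4 itself stood at 0.28 ± 0.07 (adjusted p = 0.0045), a call that ended without T0 A (0.0585). The CHAC1 promoter (RefSeq, GRCh38.p14) is shown as that of the list's largest riser, with a match to TGATGNAA on the other strand, a sequence bound by ATF4 with its partners, in capitals.
CHAC1 (chr15:40953221-40953520, plus strand): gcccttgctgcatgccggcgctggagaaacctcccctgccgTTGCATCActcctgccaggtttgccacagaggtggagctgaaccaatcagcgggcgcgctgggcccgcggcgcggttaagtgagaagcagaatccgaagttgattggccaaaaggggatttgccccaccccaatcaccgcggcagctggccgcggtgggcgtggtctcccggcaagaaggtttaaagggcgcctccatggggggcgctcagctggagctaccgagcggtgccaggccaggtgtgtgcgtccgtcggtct
The match begins 209 bases before the start. TGATGNAA was in 5 of 27 list promoters (18.5%), in 1.62% of tested genes and in 3.67% of all promoters. Of 117 promoters of genes called at least 2-fold higher, 5.13% held it. Genes of the unfolded protein response, which serves the endoplasmic reticulum, were lower in 8 and higher in 2 of 22 cases (median −0.13). HERPUD1, a component of protein disposal there, had 81 and 80.6 CPM in WT DMSO medium, against 123 and 128 CPM at T0 (−0.63 ± 0.09, adjusted p = 2.06e-05).

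Genes of G2 and M phase rose almost throughout. Of 41 tested, 38 rose (background 19.5%) and 0 fell, with a median log2 fold change of 0.53. Of these, 2 rose by at least 2-fold (background 1.26%). CENPE, a kinesin of the kinetochore, had 106 and 104 CPM in WT DMSO medium, against 49.9 and 48.8 CPM at T0 (1.09 ± 0.08, adjusted p = 1.62e-08). TTK, the spindle checkpoint kinase MPS1, had 56.8 and 58.1 CPM in WT DMSO medium, against 28.3 and 30.8 CPM at T0 (0.96 ± 0.08, adjusted p = 1.03e-07). NDC80, a microtubule-binding kinetochore protein, had 103 and 102 CPM in WT DMSO medium, against 54.7 and 54.2 CPM at T0 (0.91 ± 0.08, adjusted p = 1.44e-07). The regulators CDC20 (0.67 ± 0.07), PLK1 (0.74 ± 0.08) and FOXM1 (0.68 ± 0.07) rose as well. The 3 that did not pass were CDK1 (0.01 ± 0.07, adjusted p = 0.935), KIF23 (0.17 ± 0.07, adjusted p = 0.0523) and ECT2 (0.08 ± 0.08, adjusted p = 0.448). KIF23 passed without the p53 KO DMSO libraries (0.0188), with limma voom (0.0493) and with only the 4 libraries compared (0.0141). The PLK1 promoter (RefSeq, GRCh38.p14) is shown for its match, in capitals, to TTTGAA, the cell cycle homology region found in many mitotic genes.
PLK1 (chr16:23678639-23678938, plus strand): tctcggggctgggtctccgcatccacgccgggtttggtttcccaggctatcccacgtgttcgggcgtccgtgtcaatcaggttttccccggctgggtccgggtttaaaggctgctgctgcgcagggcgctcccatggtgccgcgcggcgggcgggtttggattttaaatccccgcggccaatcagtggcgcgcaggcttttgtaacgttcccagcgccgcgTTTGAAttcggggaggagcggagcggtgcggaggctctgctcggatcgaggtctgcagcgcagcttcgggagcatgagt
The match begins 29 bases before the start. TTTGAA, on either strand, was in 23 of 35 list promoters in the table (65.7%), in 9.45% of tested genes and in 15.4% of all promoters. Of 117 promoters of genes called at least 2-fold higher, 9.4% held it, near the share of tested genes.

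Genes of G1/S and DNA replication were called in both directions. Of 45, 15 rose and 7 fell (median 0.12), and leaving out 1 of the 4 libraries left 10 to 12 higher and 3 to 4 lower (background 19.5% higher, 19.3% lower). CCNA2, cyclin A2, had 140.2 and 145 CPM in WT DMSO medium, against 104 and 104 CPM at T0 (0.45 ± 0.07, adjusted p = 7.1e-05). TK1, thymidine kinase, was lower, with 163 and 162 CPM in WT DMSO medium, against 260.3 and 245 CPM at T0 (−0.64 ± 0.07, adjusted p = 2.41e-06), and RRM2, a ribonucleotide reductase subunit, stood at −0.51 ± 0.07. Among 21 G1 cyclins and regulators, 4 rose and 5 fell (median −0.01), against 3 rose and 3 fell without T0 B and the same without WT DMSO A. The D-type cyclins moved apart. CCND2 had 132 and 141 CPM in WT DMSO medium, against 80.4 and 75.8 CPM at T0 (0.81 ± 0.08, adjusted p = 1.11e-06), whereas CCND1 had 246 and 242 CPM in WT DMSO medium, against 374 and 372 CPM at T0 (−0.61 ± 0.10, adjusted p = 0.000151).

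**Figure D3:**
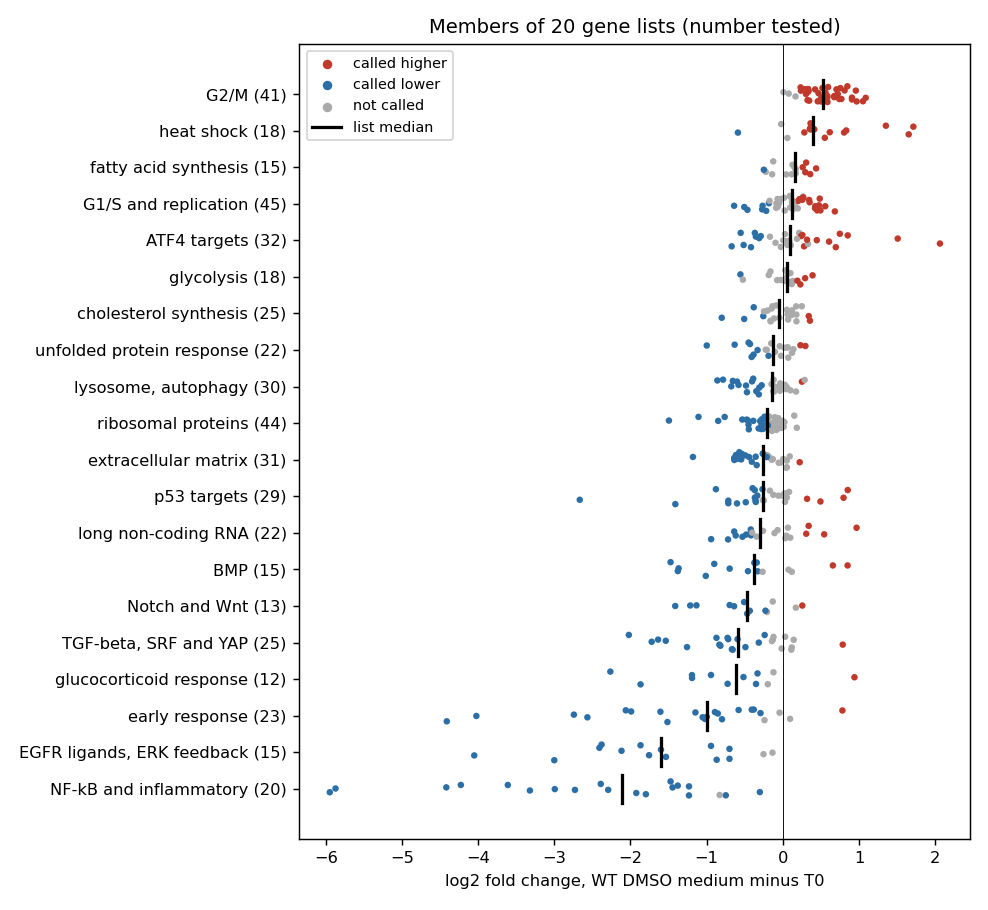
Log2 fold changes, WT DMSO medium minus T0, on the x axis for the tested members of 20 gene lists, given in rows with the number tested. Red, blue and grey points are genes called higher, called lower and not called, and black bars are list medians, which run from −2.11 (NF-kB and inflammatory) to 0.53 (G2/M).

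Genes of the p53 pathway were more often lower than higher. Of 29 targets, 14 fell and 4 rose (median −0.26), where 19.3% of all tested genes were lower and 19.5% higher. MDM2, which marks p53 for degradation, had 57.5 and 64 CPM in WT DMSO medium, against 57.3 and 61.9 CPM at T0, which overlap (0.03 ± 0.08, adjusted p = 0.796). CDKN1A, the cyclin-dependent kinase inhibitor p21, had 293 and 319 CPM in WT DMSO medium, against 384 and 401 CPM at T0 (−0.36 ± 0.09, adjusted p = 0.00532). Its call ended without T0 B (0.0564) or WT DMSO A (0.0739). GDF15, a secreted stress cytokine, showed the largest difference of the list, with 0.715 and 0.557 CPM in WT DMSO medium, against 3.98 and 4.16 CPM at T0 (−2.67 ± 0.24, adjusted p = 2.11e-07). PMAIP1, the death gene NOXA, had 27.6 and 28.4 CPM in WT DMSO medium, against 45.1 and 47.1 CPM at T0 (−0.72 ± 0.11). The kinase PLK3 (−1.41 ± 0.13) and the death receptors FAS (−0.88 ± 0.10) and TNFRSF10B (−0.49 ± 0.08) fell too. The 4 that rose were SESN2, the lesion-bypass polymerase POLH (0.80 ± 0.08), the phosphatase PPM1D (0.49 ± 0.08) and the death gene BBC3 (0.32 ± 0.11, adjusted p = 0.0303), and the BBC3 call ended when any of the 4 libraries was left out (adjusted p from 0.0868 to 0.151).

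Ribosomal protein genes were lower in 22 of 44 cases and higher in 0 (median −0.20), 2 of them by at least 2-fold. The number lower was 12 without T0 A and 14 without WT DMSO A. RPL26 had 126 and 133 CPM in WT DMSO medium, against 375 and 355 CPM at T0 (−1.50 ± 0.08, adjusted p = 2.29e-10). RPS2 had 2042 and 2129 CPM in WT DMSO medium, against 4488 and 4497 CPM at T0 (−1.11 ± 0.07, adjusted p = 1.42e-09). RPS24 (−0.85 ± 0.08) and RPS9 (−0.76 ± 0.08) followed. These genes have many processed pseudogenes, and how reads shared with them were counted is not given in the sources used here, so their levels are uncertain. Ribosome biogenesis factors gave 6 higher and 8 lower of 34 (median 0.06), near the background of 19.5% higher and 19.3% lower. Fewer were called when 1 of the 4 libraries was left out. Without the p53 KO DMSO libraries, 14 were higher and 10 lower. The nucleolar protein NOP58 stood at 0.49 ± 0.11 and the RNA polymerase subunit POLR1C at −0.58 ± 0.10. Of 22 long non-coding RNAs, 4 rose and 9 fell (median −0.30), and the higher count is near that background. Fewer were higher without T0 A, T0 B or WT DMSO B. MALAT1, an abundant nuclear RNA, had 196 and 197 CPM in WT DMSO medium, against 101 and 99.7 CPM at T0 (0.97 ± 0.11, adjusted p = 5.19e-06). SNHG15 (−0.94 ± 0.11), SNHG12 (−0.64 ± 0.14), GAS5 (−0.53 ± 0.09) and ZFAS1 (−0.42 ± 0.09), hosts of small nucleolar RNAs, fell.

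**Figure D4:**
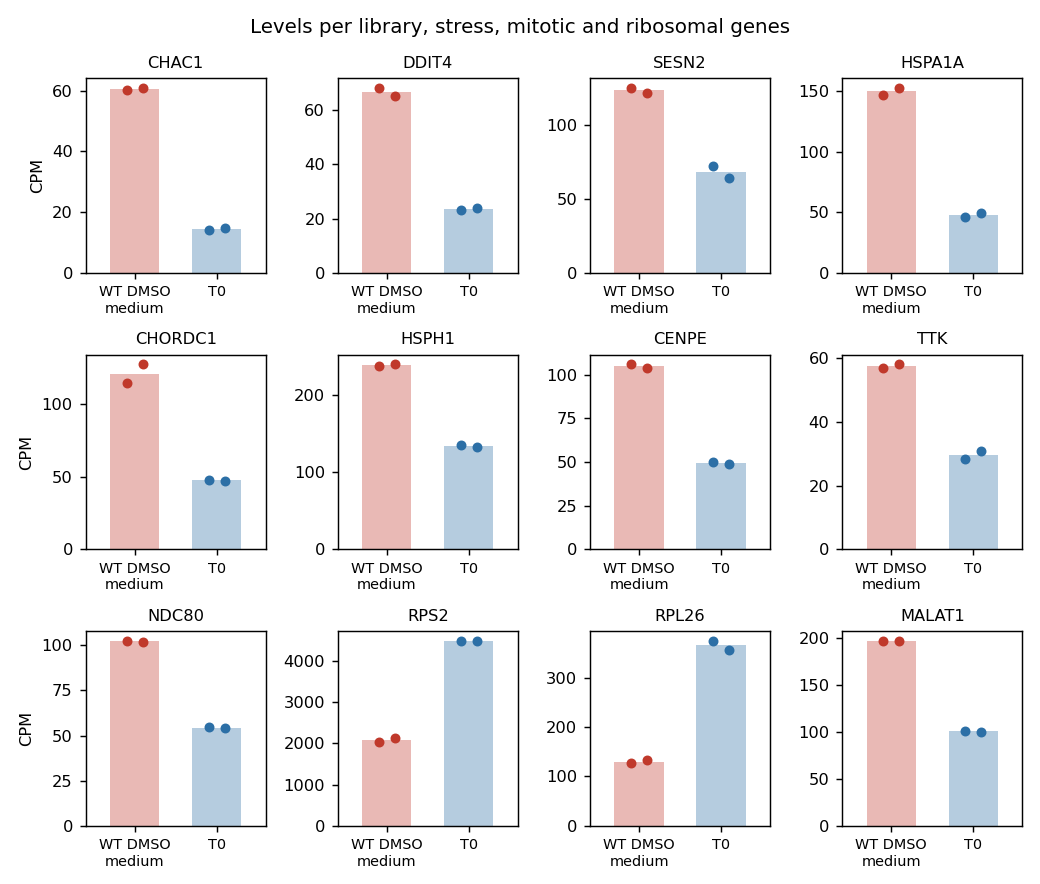
CPM on the y axis for 12 genes of the heat shock, ATF4, G2/M, ribosomal protein and long non-coding RNA lists. Points are libraries A and B and bars are their means, with WT DMSO medium in red on the left of each panel and T0 in blue on the right. RPS2 and RPL26 were lower in WT DMSO medium and the other 10 genes were higher.

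The 12 highest log2 fold changes, among called genes of at least 1 CPM in the higher group with no overlap, were those of MTRNR2L8, KCNJ11, IL22RA1, FTH1P3, PEX11A, CHAC1, LOC100128288, C17orf74, IGFL3, SP8, ZXDA and GPR83. Most of them are scarce, and 8 had under 4 CPM in each of the 4 libraries. The 2-fold risers had a median level of 4.92 CPM, against 25.2 CPM over all genes. IGFL3, a member of the insulin growth factor-like family, had 20.5 and 16.9 CPM in WT DMSO medium, against 4.93 and 4.38 CPM at T0 (2.01 ± 0.18, adjusted p = 2.74e-07). SP8, a zinc finger transcription factor, had 5.42 and 7.14 CPM in WT DMSO medium, against 2.07 and 1.41 CPM at T0 (1.85 ± 0.22). KCNJ11, a subunit of ATP-sensitive potassium channels, had 2.04 and 1.97 CPM in WT DMSO medium, against 0.425 and 0.324 CPM at T0 (2.40 ± 0.43, adjusted p = 0.000342). IL22RA1, a subunit of the interleukin-22 receptor, had 2.81 and 3.19 CPM in WT DMSO medium, against 0.796 and 0.432 CPM at T0 (2.27 ± 0.30). These genes, too, were selected for having no overlap between the groups. MTRNR2L8 and FTH1P3 are copies of other genes, and ZXDA has a near-identical paralog, so their values of 2.78 ± 0.47, 2.11 ± 0.40 and 1.84 ± 0.24 may include shared reads. MTRNR2L8 had 1.94 and 1.82 CPM in WT DMSO medium, against 0.106 and 0.432 CPM at T0, which is 2 and 8 counts at T0, and its log2 fold change was 2.09 without T0 A and 4.07 without T0 B.

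The metabolic, nutrient and lysosome lists had medians from −0.14 (lysosome and autophagy) to 0.16 (fatty acid synthesis). Their counts stand against a background of 19.5% higher and 19.3% lower. Of 25 cholesterol synthesis genes, 2 rose and 4 fell (median −0.04), with 2 lower without T0 A. HMGCS1, which makes the precursor of mevalonate, had 88.9 and 88 CPM in WT DMSO medium, against 157 and 152 CPM at T0 (−0.80 ± 0.07, adjusted p = 1.68e-07), whereas FDFT1, squalene synthase, stood at 0.36 ± 0.07. Of 15 fatty acid synthesis genes, 5 rose and 1 fell (median 0.16), with the desaturase SCD at 0.36 ± 0.07, and 2 or 3 rose when 1 of the 4 libraries was left out and 8 without the p53 KO DMSO libraries. Of 18 glycolysis genes, 4 rose and 1 fell (median 0.05), the aldolase ALDOC (−0.56 ± 0.11), and 1 or 2 rose when 1 of the 4 libraries was left out. Nutrient-responsive genes of the FOXO and MondoA list gave 6 higher and 7 lower of 21 (median 0.03), and 2 rose without T0 A or WT DMSO A and 3 without T0 B. FOXO1, a transcription factor restrained by insulin signalling, had 8.38 and 8.1 CPM in WT DMSO medium, against 30.2 and 31.9 CPM at T0 (−1.91 ± 0.14, adjusted p = 1.3e-08). FBXO32, the ubiquitin ligase atrogin-1, had 4.85 and 3.59 CPM in WT DMSO medium, against 16 and 16.1 CPM at T0 (−1.93 ± 0.17). Lysosome and autophagy genes were lower in 14 and higher in 1 of 30 cases (median −0.14), with the protease CTSB at −0.68 ± 0.07.

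Where the WT DMSO medium stood apart from the other control medium was tested directly, with no T0 library in the contrast. Against p53 KO DMSO medium, 207 genes were called (1.52%), 110 higher (0.807%) and 97 lower (0.711%) in WT DMSO medium. This count was unstable. It was 384 with DESeq2 and 1 when only these 4 libraries were fitted, and 0 without WT DMSO A or without WT DMSO B (edgeR, with 2004 and 1911 genes at p under 0.05 before adjustment; these fits were made with edgeR alone). It was 3100 without p53 KO DMSO A and 11 without p53 KO DMSO B. Genes far from T0 included some with no call in this contrast. CXCL8 had 0.46 and 0.709 CPM in WT DMSO medium, against 0.578 and 0.563 CPM in p53 KO DMSO medium (0.04 ± 0.36, adjusted p = 0.973). CHAC1 had 60.1 and 61 CPM in WT DMSO medium, against 62.2 and 53.7 CPM in p53 KO DMSO medium (0.06 ± 0.08, adjusted p = 0.698). Some early response genes were called. FOS had 17 and 13.4 CPM in WT DMSO medium, against 4.89 and 3.07 CPM in p53 KO DMSO medium (1.93 ± 0.29, adjusted p = 0.0295). EGR1 had 213 and 175 CPM in WT DMSO medium, against 69 and 47.6 CPM in p53 KO DMSO medium (1.74 ± 0.25, adjusted p = 0.0295).

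Against WT etoposide medium, 5194 genes were called (38.1%), 2787 higher (20.4%) and 2407 lower (17.6%) in WT DMSO medium. With libraries scaled by total counts alone the split turned to 2221 higher and 3291 lower. Several genes that were low in WT DMSO medium were higher in the etoposide medium. CXCL8 had 0.46 and 0.709 CPM in WT DMSO medium, against 4.76 and 5.05 CPM in WT etoposide medium (−3.05 ± 0.23, adjusted p = 1.81e-08). HBEGF had 24.3 and 25.2 CPM in WT DMSO medium, against 79.7 and 74.7 CPM in WT etoposide medium (−1.64 ± 0.09, adjusted p = 6.17e-10). GDF15 had 0.715 and 0.557 CPM in WT DMSO medium, against 25.1 and 26.5 CPM in WT etoposide medium (−5.33 ± 0.18, adjusted p = 1.91e-12). CDKN1A had 293 and 319 CPM in WT DMSO medium, against 1248 and 1224 CPM in WT etoposide medium (−2.01 ± 0.09, adjusted p = 8.33e-11). CENPE went the other way, with 106 and 104 CPM in WT DMSO medium, against 33.6 and 32.5 CPM in WT etoposide medium (1.66 ± 0.08, adjusted p = 1.12e-10). Of the 41 G2/M genes, 41 were higher and 0 lower in WT DMSO medium than in WT etoposide medium.

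For other genes the media lay closer to each other. KCNA1 had 2.71 and 2.53 CPM in WT DMSO medium, 1.52 and 1.79 in p53 KO DMSO medium, 2.33 and 3.23 in WT etoposide medium and 2.04 and 1.56 in p53 KO etoposide medium, against 61.7 and 62.5 CPM at T0. WT DMSO and WT etoposide medium differed by −0.07 ± 0.20 (adjusted p = 0.809), and all 8 conditioned-medium libraries lay far below T0. LIF had 145 and 135 CPM in WT DMSO medium, 141 and 146 in p53 KO DMSO medium, 132 and 127 in WT etoposide medium and 187 and 189.9 in p53 KO etoposide medium, against 407 and 403 CPM at T0. Its p53 KO etoposide libraries stood above the other media, while WT DMSO and WT etoposide medium differed by 0.11 ± 0.07 (adjusted p = 0.22). RPS2 had 2042 and 2129 CPM in WT DMSO medium, 2276 and 2274 in p53 KO DMSO medium, 2415 and 2327 in WT etoposide medium and 2171 and 2177 in p53 KO etoposide medium, against 4488 and 4497 CPM at T0. For RPS2 the WT DMSO and WT etoposide media differed by −0.19 ± 0.06 (adjusted p = 0.032), a small part of the distance to T0. The comparisons of each medium with T0 share the T0 libraries and are not independent of each other.

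**Figure D5:**
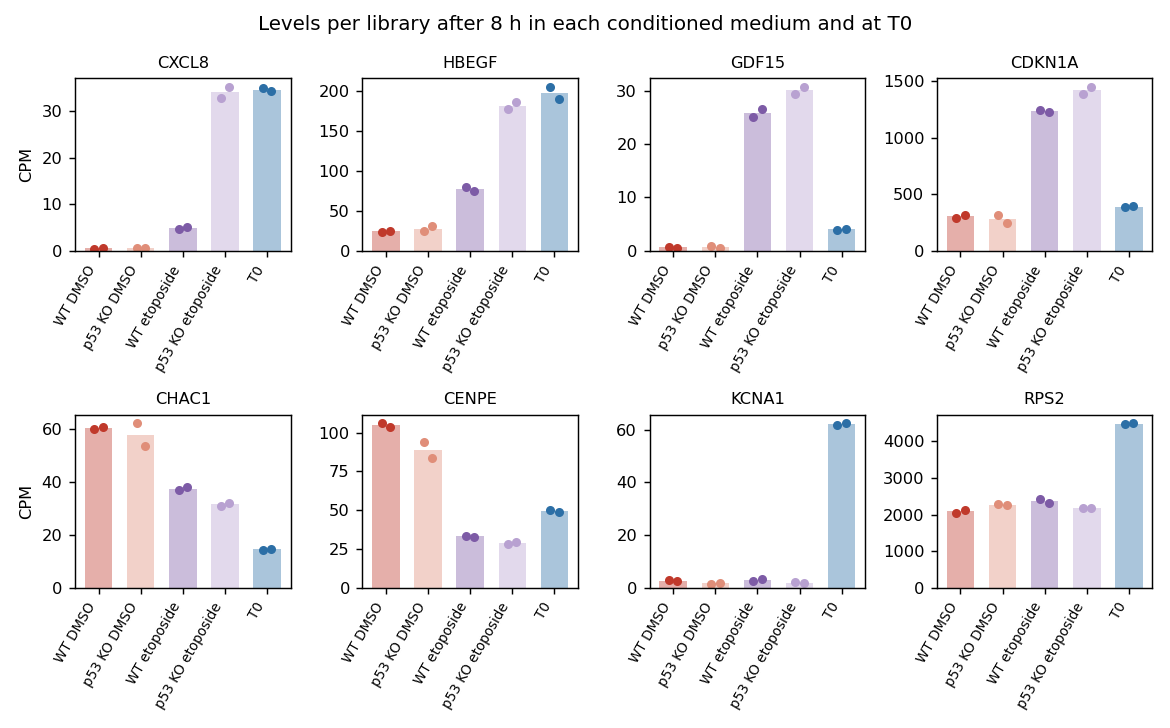
CPM on the y axis for 8 genes in WT DMSO, p53 KO DMSO, WT etoposide and p53 KO etoposide medium and at T0, from left to right. Points are libraries A and B and bars are their means. KCNA1 and RPS2 are low in all 8 conditioned-medium libraries, whereas CXCL8, HBEGF, GDF15 and CDKN1A are higher in the etoposide media than in the DMSO media.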

How the data were processed

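RNA was measured in 5 groups of 2 libraries (10 libraries); 18 libraries of a genetic screen were not used here. Values are raw counts per gene symbol as the authors deposited them, in whole numbers; the submitters' processing notes name hg19 and DESeq2, and no source used here gives the aligner or strand setting. RNA was column-purified and sequenced as total RNA libraries, per the labels' protocols. As deposited, 51 symbols stood as currency amounts, which were rewritten as the symbols (50 are in the reference), and 0 columns lacked a sample.

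Genes with a mean count of 20 or more were tested with edgeR 4.0.16 (R 4.3.3), quasi-likelihood, TMM scaling (normalisation factors 0.964 to 1.05), 1 mean per group over all 10 libraries (5 residual degrees of freedom). P-values were adjusted over 13638 genes by the Benjamini-Hochberg method, and SE is the log2 fold change over the root of F. The code was tested on simulated data. Depth was 16825669 to 20290764 counts per library. Counting intervals are exact binomial at 95% and cover counting error only. The rule named the 12 highest and 12 lowest log2 fold changes among called genes with at least 1 CPM in the higher group and no overlap between groups, the 3 genes of lowest p in each list, and a few single genes such as CDKN1A and MDM2 (116 in all, some of them not reported here); 78 more were chosen after their values were seen. The members and lists were chosen with earlier results of these data known. Promoters are from RefSeq, GRCh38.p14, matched by symbol for 10860 tested genes. Alternatives were DESeq2 1.42.0, limma 3.58.1 voom, other scalings and filters, the 4 libraries alone, a replicate block, each library left out, and, chosen after seeing the data, both p53 KO DMSO libraries left out.

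The difference between libraries A and B correlated at 0.05 between WT DMSO medium and T0 across genes. Over all pairs of groups it correlated at −0.05 to 0.15. Correlations this low show no strong shift shared by the letters, but they cannot exclude that the letters mark pairs.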

Additional observations from a re-analysis of the deposited data

Results flagged for a closer look

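Each of the following genes differed between WT DMSO medium and p53 KO DMSO medium, that is, in the effect of the 2 control media (edgeR's quasi-likelihood test, Benjamini-Hochberg adjusted p from 0.0295 to 0.0491). All these calls are lost without WT DMSO A or without WT DMSO B, when 0 genes were called (2004 and 1911 at an unadjusted p under 0.05). The p53 KO DMSO libraries also differed most between themselves, and the part of that spread in the calls was not tested.

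Among early response and ERK target genes, the log2 difference, WT DMSO medium minus p53 KO DMSO medium, was 1.93 for FOS, 1.79 for FOSB, 1.74 for EGR1 and 1.63 for EGR2. It was −0.90 for FOSL1, −0.88 for MAFF and −0.97 for DUSP5, so members of this group lay on both sides. ETV4 was at −0.58 and the receptor ERBB3 at 1.06.

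Higher in WT DMSO medium were also TP53INP1 (0.71), a p53 target, ZXDA (0.91), CITED2 (0.53), the collagen gene COL5A2 (0.44), the tumour suppressor RB1 (0.43), the clock gene PER3 (0.37), and the mitotic genes CENPI (0.52) and KIF14 (0.39).

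Lower in WT DMSO medium were the ribosome biogenesis genes RRS1 (−0.82), NOP16 (−0.62) and GRWD1 (−0.45), the ribosomal protein RPL37 (−0.33) and the kinase PLK3 (−0.61), also a p53 target. The bone genes ALPL (−0.53) and SOX9 (−0.48), the TGF-beta target PMEPA1 (−0.42), the amino acid transporter subunit SLC3A2 (−0.41), the chaperone partner SDF2L1 (−0.39) and the NRF2 target OSGIN1 (−0.39) were lower too.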

How the results depend on the processing

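For WT DMSO medium against T0, 4426 to 6826 genes were called under the settings that kept all of the 4 libraries, and 3514 to 3845 when 1 of them was left out. Of the named genes called, 161 of 180 kept call and sign in every setting. For WT DMSO against p53 KO DMSO medium, 207 genes became 384 with DESeq2, 1186 with no filter, 1 with only the 4 libraries and 349 with the replicate block (197 higher, 152 lower), and 0 to 3100 when 1 library was left out; the cause was not tested. With total counts only, 190 were higher and 83 lower, and with voom 63% of 189 were higher. The counts against WT etoposide medium stayed between 3498 and 6268.

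A-B differences correlated at 0.05 between WT DMSO medium and T0, which cannot exclude that the letters mark pairs. With the replicate block, 5283 genes were called against T0.

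Signs turned only in values near 0. Leaving out 1 of the 4 libraries in turn gave median log2 fold changes of −0.0893 to 0.000395 for the cholesterol list (above 0 without WT DMSO B) and −0.12 to 0.0322 for histones (above 0 without T0 B), whose median was −0.20 with filterByExpr and −0.20 with no filter, and the clock list had −0.00760 with no filter. The medians of the LXR, NRF2 and G1 cyclin lists also crossed 0 in some settings. In the same way MDM2 ran from −0.0504 to 0.10 (below 0 without T0 A or WT DMSO B), FOSB from −0.0759 to 0.28 (below 0 without T0 B), ATF3 from −0.17 to 0.0902 (above 0 without T0 A or WT DMSO A), DUSP6 from −0.27 to 0.00269 (above 0 without T0 B), FN1 from −0.13 to 0.20 (below 0 without WT DMSO A) and CDK1 from −0.0626 to 0.0771 (below 0 without T0 A or WT DMSO B). CDK1 was at −0.00113 with only the 4 libraries, and none of these 6 genes passed the test. With 2 libraries a group, genes under 1 CPM have wide errors.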

Other observations

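Circadian clock genes were called in both directions, 6 higher and 3 lower of 17 (median 0.11), where 19.5% of all tested genes were higher and 19.3% lower, so the lower count is near that background. DBP, a clock output factor, had 36.5 and 35.7 CPM in WT DMSO medium, against 17.2 and 15 CPM at T0 (log2 fold change 1.16 ± 0.21, SE, adjusted p = 0.000319 by edgeR's quasi-likelihood test). NR1D1 (0.66 ± 0.10) and NR1D2 (0.52 ± 0.12), repressors of the clock's positive arm, rose. PER2, a repressor of its own transcription, had 28.5 and 26 CPM in WT DMSO medium, against 45.6 and 46.6 CPM at T0 (−0.76 ± 0.09, adjusted p = 8.44e-06), and BHLHE40 (−0.74 ± 0.07) fell too. Of 21 hypoxia genes, 5 rose and 8 fell (median −0.13), with fewer calls (3 to 5 higher, 4 or 5 lower) when 1 of the 4 libraries was left out. A pair of related enzymes that set the level of a glycolytic activator moved apart, PFKFB3 at −0.78 ± 0.10 and PFKFB4 at 0.67 ± 0.12.

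The next counts stand against a background of 19.5% of tested genes higher and 19.3% lower. Of 19 NRF2 targets, 1 rose and 4 fell (median −0.01), a lower count near the background. The 4 include TXNRD1 (−0.67 ± 0.07), thioredoxin reductase, and GCLC (−0.61 ± 0.08), which makes the first step of glutathione synthesis. Of 28 nuclear genes of oxidative phosphorylation, 2 rose and 9 fell (median −0.01), and 3 to 5 fell when 1 of the 4 libraries was left out. SDHC, a membrane anchor of succinate dehydrogenase, had 33.8 and 35.1 CPM in WT DMSO medium, against 63.3 and 63.8 CPM at T0 (−0.88 ± 0.08, adjusted p = 2.96e-07). Of 31 zinc finger genes, 7 rose and 2 fell (median 0.14), a higher count near the background, with ZNF175 at 0.69 ± 0.13. Of 8 LXR genes, 1 rose and 2 fell (median −0.04). Of 11 histone genes, whose reads near-identical copies share, 1 rose and 3 fell (median −0.04), with 1 lower without T0 A or WT DMSO A. The LXR calls were 0 higher and 1 lower without T0 B or WT DMSO A, and 1 higher and 0 lower without T0 A or WT DMSO B.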
